A study of Mus musculus with 8 samples.

Results

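The genes described here are 34 mouse genes of sterol and fatty acid synthesis and of their control by sterol regulatory element binding proteins (SREBPs), out of 21859 gene IDs counted in the series. The rule is a list of names and uses no measured value, though the list was drawn up with earlier results of these data known. Each listed symbol was matched to its Ensembl ID in GENCODE M21, and all 34 were found. The mevalonate steps gave 7 genes, the steps from the making of squalene onwards 11, the regulators and a sterol carrier 6, and fatty acid synthesis 10. RNA was sequenced from 8 cultures of a mouse leukaemia line named PER-M60, and the deposited values are raw counts per gene. The control group is 4 cultures in control medium, and the other group is 4 cultures in medium conditioned by osteoclasts, the cells that resorb bone. The labels name no genotype, added agent, culture time, composition of either medium or source of the osteoclasts, so the media may differ in more than osteoclast products, and 1 cell line stands for the leukaemia. The comparison asks how the transcripts of the leukaemia cells differ between the media.

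Cells make cholesterol and isoprenoids from acetyl-CoA through mevalonate and squalene, and they make fatty acids from the same acetyl-CoA through malonyl-CoA. SREBPs are transcription factors held in the membrane of the endoplasmic reticulum. When sterols are scarce, SCAP escorts them to the Golgi for cleavage, and INSIG proteins retain SCAP when sterols are plentiful. SREBP-2, from Srebf2, is known mainly for sterol genes and SREBP-1, from Srebf1, mainly for fatty acid genes. Proliferating cells need both products for new membranes.

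Total counts ran from 15391754 to 21637966 in the control cultures and from 16868383 to 19874229 in the osteoclast-conditioned cultures. A floor of 3 counts was worth 0.139 to 0.195 CPM (counts scaled to a common library total, without further normalisation). The labels name no lineage and no batch, and p-values here measure the spread between these cultures of 1 line. All 10 B lineage markers were expressed, and their summed level was 4338 to 4397 CPM in control medium and 4499 to 4537 in osteoclast-conditioned medium, with 6 of them called higher and 2 lower. T lineage markers summed to 0.720 CPM or less in every culture. The 11 osteoclast markers summed to 129.8 to 136 and 138 to 144 CPM in the respective media, most of it from Nfatc1 (1494 to 2070 counts), Acp5 and Itgb3, the 3 that passed the filter; Nfatc1 was called higher and Itgb3 lower. Of the more specific ones, Ocstamp and Dcstamp were at 0 in all cultures and Ctsk and Calcr had at most 5 and 1 counts. The 8 myeloid and macrophage markers summed to 6.44 to 7.21 and 7.40 to 9.13 CPM, with Itgam, Elane and Cd14 at 0 and Lyz2 called higher. The part of these markers in the results was not tested. In bulk RNA, fewer cells of a type and less RNA per cell cannot be told apart.

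Genes of the sterol branch were lower or not called in osteoclast-conditioned medium, while those of the fatty acid branch went both ways. Levels are given as normalised CPM, the CPM after scaling the libraries by TMM, and a gene is called where edgeR's quasi-likelihood test gave a Benjamini-Hochberg adjusted p under 0.05 over all tested genes. Of the 34 members, 33 passed the filter on low counts. The exception was Me1, the NADP-dependent malic enzyme, with 0 to 3 counts per culture. Of the 33, 14 were called, 3 higher and 11 lower. Over all 10729 tested genes 30.5% were called, 15.7% higher and 14.8% lower. That balance depends on the scaling, since 51.6% of all calls were higher with TMM and 40.7% when only total counts were used, a shift of -0.021 in the median log2 fold change of all tested genes. With total counts only, 3 members were called higher and 13 lower, and of all 10729 tested genes 1383 and 2012. The values of 13 members did not overlap between the groups, 3 higher and 10 lower. Among all tested genes 28.2% did not overlap, 15.2% higher and 12.9% lower. Changes were small: the largest among the members was -0.58, SE 0.18 (log2 fold change of Tm7sf2), and the median absolute log2 fold change was 0.072 for the members and 0.095 for all tested genes.

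**Figure D1:**
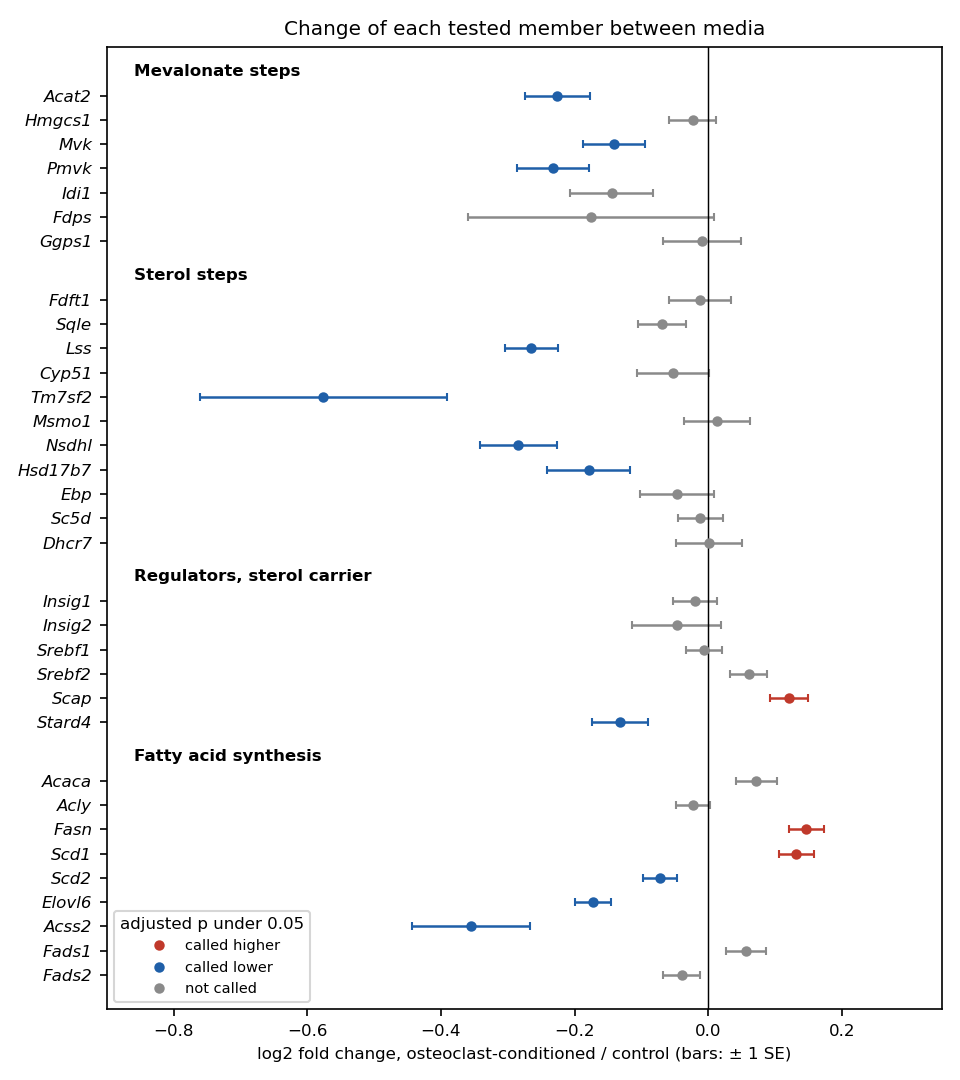
Log2 fold change of the 33 tested members between osteoclast-conditioned and control medium, with 1 standard error on each side, by role. The 18 mevalonate and sterol genes lie between -0.58 and 0.014, and of them 7 are called lower and 0 higher; among the 9 tested fatty acid genes 2 are called higher and 3 lower.

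The region just upstream of the transcription start is where SREBPs and their partners bind in many of these genes, so the upstream sequence is shown for 6 members with different results. RefSeq promoter windows on GRCm38.p6 were found for 27 of the 34 members. The following motifs were searched on both strands in the 250 bases before each start: the core of a sterol regulatory element (TCACNCCAC), an E-box (CACGTG), the CCAAT box bound by NF-Y (CCAAT) and the GC box bound by Sp1 (GGGCGG). In the lines that follow, capitals mark every match of these motifs, 5′ to 3′ in the direction of the gene, and bases inside the annotated transcript are left out. Lss, Nsdhl and Hsd17b7 were called lower, Hmgcs1 was not called, Fasn was called higher and Elovl6 lower.
Hmgcs1 (chr13:119690101-119690350, + strand): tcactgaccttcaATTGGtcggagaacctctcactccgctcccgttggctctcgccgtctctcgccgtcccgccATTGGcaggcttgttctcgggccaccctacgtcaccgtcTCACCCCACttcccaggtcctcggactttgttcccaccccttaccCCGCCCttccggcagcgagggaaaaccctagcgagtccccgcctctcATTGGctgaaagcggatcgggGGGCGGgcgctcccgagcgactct
Lss (chr10:76531355-76531587, + strand): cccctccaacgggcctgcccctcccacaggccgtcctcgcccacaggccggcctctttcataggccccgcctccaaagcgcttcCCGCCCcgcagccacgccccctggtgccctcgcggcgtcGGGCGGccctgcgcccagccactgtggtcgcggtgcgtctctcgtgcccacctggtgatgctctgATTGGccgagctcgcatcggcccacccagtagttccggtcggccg
Nsdhl (chrX:72918271-72918520, + strand): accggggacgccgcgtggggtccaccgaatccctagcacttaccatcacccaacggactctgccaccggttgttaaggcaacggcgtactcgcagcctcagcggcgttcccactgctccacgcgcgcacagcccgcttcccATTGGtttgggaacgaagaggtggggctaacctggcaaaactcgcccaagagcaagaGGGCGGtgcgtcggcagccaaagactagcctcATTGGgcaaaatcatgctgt
Hsd17b7 (chr1:169969242-169969455, - strand): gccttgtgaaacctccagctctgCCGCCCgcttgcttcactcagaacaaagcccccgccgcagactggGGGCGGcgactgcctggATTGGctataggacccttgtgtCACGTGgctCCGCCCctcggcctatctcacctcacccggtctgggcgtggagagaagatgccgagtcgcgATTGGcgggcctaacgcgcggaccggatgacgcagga
Fasn (chr11:120824548-120824797, - strand): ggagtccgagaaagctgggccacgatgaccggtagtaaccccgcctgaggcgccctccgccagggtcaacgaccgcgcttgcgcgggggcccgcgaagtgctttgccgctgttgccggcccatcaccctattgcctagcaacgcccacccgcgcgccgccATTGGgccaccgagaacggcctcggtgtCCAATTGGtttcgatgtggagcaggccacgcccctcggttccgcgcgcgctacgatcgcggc
Elovl6 (chr3:129532136-129532354, + strand): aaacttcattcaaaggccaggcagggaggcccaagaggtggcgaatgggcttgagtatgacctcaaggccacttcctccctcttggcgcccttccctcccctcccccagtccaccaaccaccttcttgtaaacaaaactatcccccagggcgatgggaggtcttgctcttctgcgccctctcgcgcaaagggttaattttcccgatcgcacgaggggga
Only Hmgcs1 among the 27 members held the sterol regulatory element core, 137 bases before the start, against 1.22% of all 27025 genes with a window. A CCAAT box was found in 21 of the 27 members (77.8%) and in 37.5% of all genes, and a GC box in 22 (81.5%) and 35.4%. Some genes have more than 1 window. Per window the CCAAT box was in 61.1% of those of members and 33.8% of all, and the GC box in 69.4% and 32.7%. All genes with a window include genes not tested here, and the tested genes alone were not compared. The E-box was in 5 members, Dhcr7, Hsd17b7, Insig1, Sc5d and Scap, or 18.5% against 6.86%. In the sterol branch 14 of 15 genes with a window held a CCAAT box, and in the fatty acid branch 3 of 7. Of the members called lower, 7 of 9 with a window had one, of those called higher 1 of 2, and of those not called 12 of 15. The CCAAT matches of Fasn include an overlapping pair on opposite strands. Elovl6 held no match in the stretch shown. A match is a description of the letters, not a measured binding site. Only these letters in 250 bases were searched, so a gene without a match may still hold a site.

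Of the 7 mevalonate genes, which lead from acetyl-CoA to the isoprenoid diphosphates, 3 (42.9%) were called lower and 0 higher in osteoclast-conditioned medium, where 14.8% of all tested genes were called lower. All 7 had a negative fold change, although those of Hmgcs1 and Ggps1 turned positive when single cultures were left out. Acat2, the thiolase that joins a pair of acetyl-CoA molecules, measured 49.0, 53.2, 44.2 and 46.8 normalised CPM in control replicates 1 to 4 and 41.2, 41.4, 41.7 and 41.7 in osteoclast-conditioned replicates 1 to 4. Every osteoclast-conditioned culture lay below every control culture (log2 fold change -0.23, SE 0.048, with an edgeR adjusted p of 0.000583). Pmvk, phosphomevalonate kinase (ENSMUSG00000027952; chromosome 3, 89454541 to 89469013 in GRCm38), had 28.5, 28.0, 31.0 and 28.7 normalised CPM in the control cultures and 24.1, 26.0, 24.1 and 24.6 in the osteoclast-conditioned cultures, again with no overlap (log2 fold change -0.23, SE 0.054, with an edgeR adjusted p of 0.00123). Mvk, mevalonate kinase, which acts just before it, had 40.6, 41.6, 39.7 and 37.8 normalised CPM in the control cultures and 34.3, 36.8, 37.5 and 36.5 in the osteoclast-conditioned cultures (log2 fold change -0.14, SE 0.047, with an edgeR adjusted p of 0.0223). The groups of Mvk did not overlap either, but its call rested on control replicates 1 and 2 and osteoclast-conditioned replicate 1. Leaving out each of these in turn gave log2 fold changes of -0.13, -0.12 and -0.11 with edgeR adjusted p of 0.0632, 0.0636 and 0.109. With all cultures, the DESeq2 test did not call Mvk either (DESeq2 adjusted p = 0.0617).

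Hmgcs1, the synthase that makes HMG-CoA and the most abundant mevalonate gene here, did not pass the test. It had 233, 265, 242 and 234 normalised CPM in the control cultures and 241, 248, 241 and 229.7 in the osteoclast-conditioned cultures, and the groups overlapped (log2 fold change -0.023, SE 0.035, with an edgeR adjusted p of 0.662). Without control replicate 2, its highest culture, the sign turned (log2 fold change 0.021, edgeR adjusted p = 0.610). Idi1, which interconverts isopentenyl and dimethylallyl diphosphate, had 19.9, 24.5, 22.1 and 23.1 normalised CPM in the control cultures and 21.0, 20.1, 20.1 and 20.3 in the osteoclast-conditioned cultures. Control replicate 1 lay below all osteoclast-conditioned cultures and the other 3 control cultures above them, and the gene did not pass the test (log2 fold change -0.14, SE 0.063, with an edgeR adjusted p of 0.0808). It was called lower without control replicate 1 (log2 fold change -0.19, edgeR adjusted p = 0.0216) and with total counts only (log2 fold change -0.17, edgeR adjusted p = 0.0426). Without control replicate 2, its highest culture, the change was smaller (log2 fold change -0.093, edgeR adjusted p = 0.286). Ggps1, which makes geranylgeranyl diphosphate for protein prenylation, had a log2 fold change of -0.0093, SE 0.058. Fdps, farnesyl diphosphate synthase, had 24 to 41 counts per culture, or 1.78, 1.89, 1.55 and 1.75 normalised CPM in the control cultures and 1.48, 1.56, 1.45 and 1.75 in the osteoclast-conditioned cultures. The groups overlapped, and no difference was detectable at this depth (log2 fold change -0.18, SE 0.18, with an edgeR adjusted p of 0.506). In GENCODE M21, 26.7% of the exon bases of Fdps are shared with exons of Gm43738, a gene on the same strand that itself had 0 to 2 counts. How reads in the shared part were assigned is not given in the sources used here, so its counts are uncertain.

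Of the steps from the making of squalene to cholesterol, 4 of 11 genes (36.4%) were called lower and 0 higher, with 14.8% of all tested genes called lower. These 4 lie between Sqle and Ebp in the order of the pathway, as do Cyp51 and Msmo1, which were not called. Lss, lanosterol synthase, which closes the sterol rings, measured 68.4, 73.1, 69.1 and 66.6 normalised CPM in control replicates 1 to 4 and 57.8, 58.3, 60.0 and 54.9 in osteoclast-conditioned replicates 1 to 4. The groups did not overlap (log2 fold change -0.26, SE 0.040, with an edgeR adjusted p of 6.01e-06). Nsdhl and Hsd17b7 encode a dehydrogenase and a reductase that act with Msmo1 to remove methyl groups from the sterol ring. Nsdhl (ENSMUSG00000031349; chromosome X, 72918557 to 72958514 in GRCm38) had 29.3, 32.2, 29.2 and 32.3 normalised CPM in the control cultures and 26.3, 22.9, 27.1 and 24.9 in the osteoclast-conditioned cultures, with no overlap (log2 fold change -0.28, SE 0.057, with an edgeR adjusted p of 0.000293). Hsd17b7 had 25.7, 31.0, 25.6 and 25.6 normalised CPM in the control cultures and 24.7, 24.1, 24.3 and 22.6 in the osteoclast-conditioned cultures (log2 fold change -0.18, SE 0.062, with an edgeR adjusted p of 0.0292). Control replicate 2 stood above the other control cultures in Hsd17b7, and without it the change was not called (log2 fold change -0.097, edgeR adjusted p = 0.212); leaving out osteoclast-conditioned replicate 2, 3 or 4 also ended the call, with log2 fold changes of -0.18, -0.19 and -0.15 and edgeR adjusted p of 0.0583, 0.0532 and 0.0839. Hsd17b7 was also not called by the DESeq2 test on all cultures (DESeq2 adjusted p = 0.0685). Msmo1, the methyl oxidase of the same complex, was not called (0.014, SE 0.050), and its sign turned with total counts only (-0.0076).

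Tm7sf2, a sterol reductase, showed the largest fold change of all members but on few counts. It had 71, 56, 46 and 67 counts in control replicates 1 to 4 and 43, 38, 29 and 52 in osteoclast-conditioned replicates 1 to 4. Scaled, that was 4.20, 2.58, 2.98 and 3.78 normalised CPM in the control cultures and 2.19, 2.28, 1.56 and 3.03 in the osteoclast-conditioned cultures. The groups overlapped, since osteoclast-conditioned replicate 4 lay above control replicates 2 and 3 (log2 fold change -0.58, SE 0.18, with an edgeR adjusted p of 0.0192). Leaving out control replicate 1 or 4, or osteoclast-conditioned replicate 1 or 3, ended the call, with log2 fold changes of -0.45, -0.51, -0.56 and -0.43 and edgeR adjusted p of 0.0894, 0.0707, 0.0596 and 0.0926. In addition, 12.1% of its exon bases are shared with Vps51 on the same strand.

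The enzymes that open and close the sterol pathway did not pass the test. Fdft1, squalene synthase, the first step committed to sterols, had 40.9, 45.5, 43.2 and 40.7 normalised CPM in the control cultures and 42.7, 44.2, 40.9 and 41.4 in the osteoclast-conditioned cultures (log2 fold change -0.012, SE 0.046, with an edgeR adjusted p of 0.871). Sqle, squalene epoxidase, a rate-limiting step, had 125, 144, 129 and 131 normalised CPM in the control cultures and 128, 129, 126 and 122 in the osteoclast-conditioned cultures (log2 fold change -0.069, SE 0.036, with an edgeR adjusted p of 0.156). Its highest culture was again control replicate 2, and the gene was called lower in 1 of the 17 alternatives, that with total counts only (log2 fold change -0.090, edgeR adjusted p = 0.0499). Without control replicate 2 the change was smaller (log2 fold change -0.024, edgeR adjusted p = 0.603). The remaining genes were Cyp51, the lanosterol demethylase, at -0.053, SE 0.053, Ebp, the sterol isomerase, at -0.047, SE 0.055, Sc5d, the desaturase, at -0.012, SE 0.034, and Dhcr7, the last reductase, at 0.0014, SE 0.050 (log2 fold changes). The value of Cyp51 went to -0.012 without control replicate 2 and to -0.0088 without osteoclast-conditioned replicate 4, and that of Ebp ran from -0.073 without control replicate 2 to -0.018 without osteoclast-conditioned replicate 3. The sign of Dhcr7 turned with total counts only (-0.020) and with upper quartile scaling (-0.0075). Over both parts of the sterol branch, 7 of 18 genes (38.9%) were called lower and 0 higher, against 14.8% of all tested genes called lower and 30.5% called either way. A negative fold change was found in 16 of the 18, and in 52.2% of all tested genes. The median log2 fold change of the 18 was -0.11, and over all tested genes it was -0.0087.

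One control culture often held the highest control value, in the sterol branch and in other lipid genes. Control replicate 2, the library with the most counts, was the highest control culture in 13 of the 18 sterol branch genes (72.2%) and in 22 of the 33 tested members (66.7%), against 31.9% of all tested genes. The share was 66.7% (6 of 9) in the fatty acid branch and 56.5% (48 of 85) over the tested genes of the 7 other lipid lists described at the end. Without it, 5 of the 18 sterol branch genes were called lower and 0 higher, namely Acat2, Pmvk, Lss, Nsdhl and Tm7sf2, and the median log2 fold change was -0.083. In the fit without control replicate 2, 1732 of 10797 tested genes were called lower and 1846 higher. What sets this culture apart was not tested. Osteoclast-conditioned replicate 4 was the lowest of its group in 7 of the 18, 38.9%, in 6 of the 9 fatty acid genes, 66.7%, and in 16 of the 33 members, 48.5%, against 29.8% of all tested genes. Its omission left 6 sterol branch genes called lower and a median of -0.11. Acat2, Pmvk, Lss and Nsdhl were called lower under all 17 alternatives run.

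**Figure D2:**
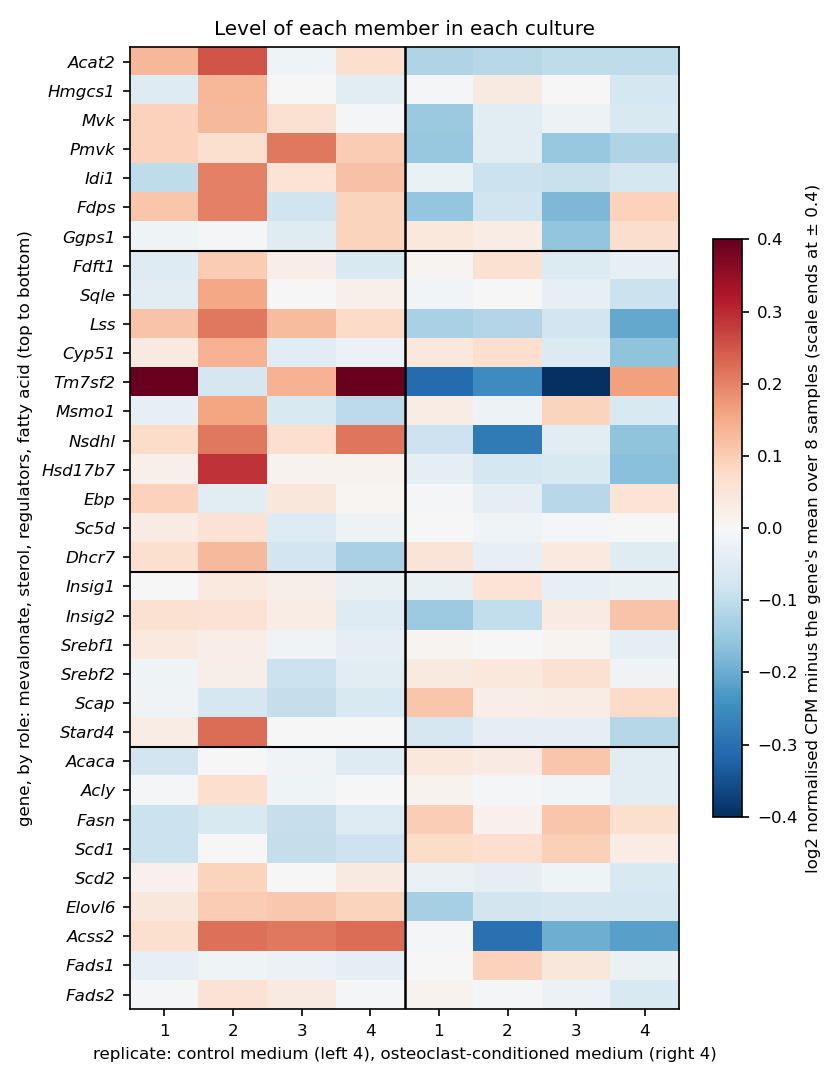
Log2 normalised CPM of each tested member in each of the 8 cultures, relative to the gene's own mean, with red above and blue below it. Control replicate 2 is the highest control culture in 13 of the 18 mevalonate and sterol genes, which fill the upper part, and the fatty acid genes at the bottom include rows that are red on the right (Fasn, Scd1) and rows that are blue there (Elovl6, Acss2).

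Among the regulators, 1 of 6 genes was called higher and 1 lower, a share of 33.3% that is near the 30.5% of all tested genes. Scap, the escort of the SREBPs (ENSMUSG00000032485; chromosome 9, 110333288 to 110384950 in GRCm38), had 241, 232, 227 and 233 normalised CPM in control replicates 1 to 4 and 262, 247, 248 and 256 in osteoclast-conditioned replicates 1 to 4. All osteoclast-conditioned cultures lay above all control cultures (log2 fold change 0.12, SE 0.028, with an edgeR adjusted p of 0.00144), and the gene was called higher under all 17 alternatives. Stard4, a soluble carrier that moves cholesterol between membranes, had 138, 158, 135 and 136 normalised CPM in the control cultures and 129.6, 132, 132 and 125 in the osteoclast-conditioned cultures (log2 fold change -0.13, SE 0.042, with an edgeR adjusted p of 0.0238). Its groups did not overlap, but control replicate 2 was at 158 against at most 138 in the other control cultures. The call was lost without it (log2 fold change -0.073, edgeR adjusted p = 0.0663), and also without osteoclast-conditioned replicate 1 or 4, with log2 fold changes of -0.13 and -0.11 and edgeR adjusted p of 0.0630 and 0.0627.

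The SREBP genes themselves did not pass the test. Srebf2 had 579, 596, 552 and 568 normalised CPM in the control cultures and 600.0, 604, 611 and 579.7 in the osteoclast-conditioned cultures (log2 fold change 0.061, SE 0.027, with an edgeR adjusted p of 0.0949). All 4 osteoclast-conditioned values lay above control replicates 1, 3 and 4, and the change was called higher without control replicate 2 (log2 fold change 0.079, edgeR adjusted p = 0.0148) or without osteoclast-conditioned replicate 4 (log2 fold change 0.077, edgeR adjusted p = 0.0332). The change was smaller without control replicate 3 (log2 fold change 0.044, edgeR adjusted p = 0.226) and with total counts only (log2 fold change 0.039, edgeR adjusted p = 0.26). Srebf1, whose transcript isoforms the gene counts do not separate, had 304, 302, 294 and 289 normalised CPM in the control cultures and 298, 297, 299 and 289 in the osteoclast-conditioned cultures, and the groups overlapped widely (log2 fold change -0.0067, SE 0.027, with an edgeR adjusted p of 0.875). Insig1, the INSIG gene that is itself an SREBP target, had 99.7, 102, 101 and 97.6 normalised CPM in the control cultures and 97.5, 103, 97.3 and 97.7 in the osteoclast-conditioned cultures (log2 fold change -0.019, SE 0.033, with an edgeR adjusted p of 0.6996). Insig2, the less abundant INSIG gene, had 18.003, 17.9, 17.6 and 16.6 normalised CPM in the control cultures and 15.6, 16.1, 17.7 and 18.7 in the osteoclast-conditioned cultures, with overlap (log2 fold change -0.047, SE 0.067, with an edgeR adjusted p of 0.634). Leaving out 1 culture at a time, the log2 fold change ran from -0.038 to -0.0083 for Insig1 and from -0.091 to -0.0034 for Insig2.

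The fatty acid genes held the most abundant members and went in opposite directions. Of the 9 tested, 2 were called higher and 3 lower, 55.6% against 30.5% of all tested genes. Their median log2 fold change was -0.023. Fasn, fatty acid synthase, which builds palmitate (ENSMUSG00000025153; chromosome 11, 120805846 to 120824547 in GRCm38), had 1020.0, 1038, 1015 and 1044 normalised CPM in control replicates 1 to 4 and 1160.5, 1095, 1170.0 and 1133 in osteoclast-conditioned replicates 1 to 4. Each osteoclast-conditioned culture lay above each control culture (log2 fold change 0.15, SE 0.026, with an edgeR adjusted p of 6.30e-05). Scd1, a stearoyl-CoA desaturase that makes monounsaturated fatty acids, had 1109.6, 1175, 1102 and 1111 normalised CPM in the control cultures and 1238, 1233, 1258 and 1201 in the osteoclast-conditioned cultures, also with no overlap (log2 fold change 0.13, SE 0.027, with an edgeR adjusted p of 0.000272). Both were called higher under all 17 alternatives.

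Elovl6 and Acss2 were called lower. Elovl6, the elongase that lengthens palmitate (ENSMUSG00000041220; chromosome 3, 129532355 to 129638495 in GRCm38), had 323, 335, 337 and 333 normalised CPM in the control cultures and 285, 297, 299 and 298 in the osteoclast-conditioned cultures (log2 fold change -0.17, SE 0.027, with an edgeR adjusted p of 8.67e-06). Acss2, which makes acetyl-CoA from acetate, had 8.94, 9.96, 9.90 and 9.99 normalised CPM in the control cultures and 8.50, 6.95, 7.46 and 7.35 in the osteoclast-conditioned cultures (log2 fold change -0.36, SE 0.088, with an edgeR adjusted p of 0.00248). In both genes the groups did not overlap, and both were called lower under all 17 alternatives. Acss2 was the least abundant tested gene of the branch, with 116 to 216 counts per culture, and 5.83% of its exon bases are shared with genes on the opposite strand. Scd2, the paralog of Scd1 and the most abundant member, had 1583, 1661, 1563 and 1602 normalised CPM in the control cultures and 1534, 1522, 1543 and 1497 in the osteoclast-conditioned cultures (log2 fold change -0.072, SE 0.026, with an edgeR adjusted p of 0.0311). The groups did not overlap, yet the mean fell by 4.89%, and leaving out any 1 culture other than control replicate 3 gave a log2 fold change of -0.078 to -0.055 and an edgeR adjusted p of 0.0539 to 0.0819.

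The other tested fatty acid genes, Acaca, Acly, Fads1 and Fads2, did not pass the test. Acaca, acetyl-CoA carboxylase, which makes malonyl-CoA, had 209, 220.5, 219 and 213 normalised CPM in the control cultures and 227, 226, 238 and 214 in the osteoclast-conditioned cultures (log2 fold change 0.072, SE 0.031, with an edgeR adjusted p of 0.0756). It was called higher without control replicate 2 (log2 fold change 0.084, edgeR adjusted p = 0.0289) or without osteoclast-conditioned replicate 4 (log2 fold change 0.098, edgeR adjusted p = 0.0129). Without osteoclast-conditioned replicate 3, its highest culture, the change was smaller (log2 fold change 0.047, edgeR adjusted p = 0.326). Acly, which splits citrate to acetyl-CoA for both branches, had a log2 fold change of -0.023, SE 0.026 (-0.0035 without control replicate 2) at 724 ± 19.1 normalised CPM in control medium (SD, n = 4). Fads2, a desaturase of polyunsaturated fatty acids, had 242, 253, 249.5 and 242 normalised CPM in the control cultures and 245, 242, 239 and 233 in the osteoclast-conditioned cultures (log2 fold change -0.039, SE 0.028, with an edgeR adjusted p of 0.301). It ran from -0.048 to -0.024 when 1 culture was left out. Its neighbour Fads1, the other desaturase of that route, was at 0.056, SE 0.030, and ran from 0.037 to 0.075 when 1 culture was left out. Without control replicate 2, or without osteoclast-conditioned replicate 4, 3 fatty acid genes were called higher and 2 lower, and the branch median was -0.0035 or -0.011. Over all tested genes these fits called 1846 higher and 1732 lower of 10797, and 1670 higher and 1525 lower of 10785.

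**Figure D3:**
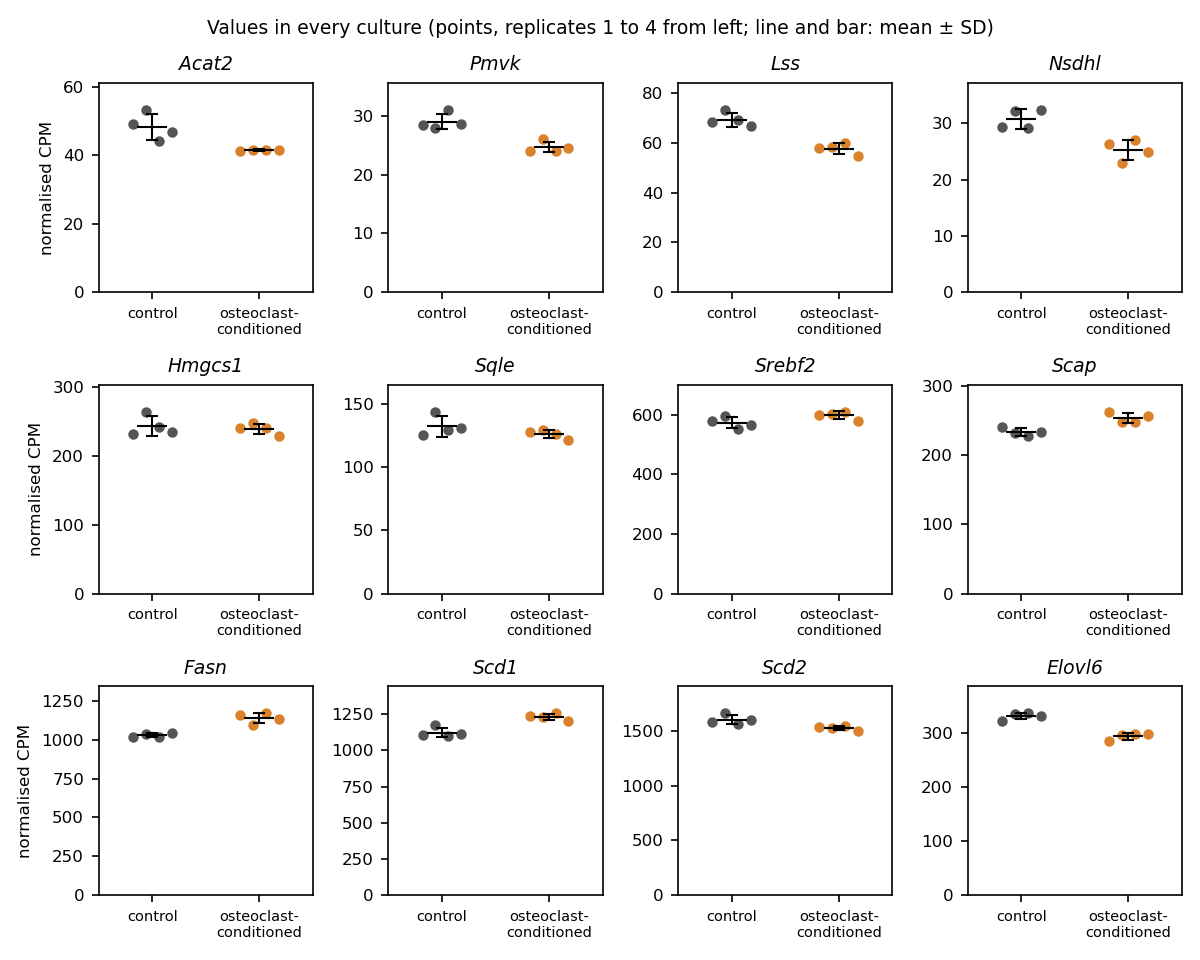
Normalised CPM of 12 members in each culture (points) with mean and SD (n = 4), on axes that start at 0. Acat2, Pmvk, Lss, Nsdhl, Elovl6 and Scd2 are lower in all osteoclast-conditioned cultures than in all control cultures, Scap, Fasn and Scd1 are higher in all of them, and Hmgcs1, Sqle and Srebf2 overlap.

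Set side by side, the branches differed in their counts of calls, and that difference was not tested. The 18 sterol branch genes summed to 1198, 1303, 1181 and 1175 normalised CPM in control medium and to 1177, 1179.7, 1161 and 1118 in osteoclast-conditioned medium. The groups overlapped, and control replicate 2 was the highest; the other 3 control cultures lay between 1175 and 1198, with osteoclast-conditioned replicates 1 and 2 inside that range. The 9 tested fatty acid genes summed to 5368, 5604, 5364 and 5429 and to 5585, 5508, 5633 and 5439 in the same order, also overlapping. In the summed fatty acid level, Fasn, Scd1 and Scd2 made up 68.6 to 69.2% in control medium and 69.9 to 70.5% in osteoclast-conditioned medium.

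Per kilobase of annotated exon, the members spanned a wide range of levels. Scd2 ranked first among the 33, with 293 normalised CPM per kilobase in control medium, followed by Scd1 (229.9), Acly (137), Fasn (94.0), Srebf2 (79.9) and Fads2 (74.9). Srebf1 (52.7) and Hmgcs1 (53.0) stood next to each other, and Hmgcs1 was the highest of the sterol branch. The 4 sterol branch genes with the highest levels per kilobase, Hmgcs1, Cyp51, Sqle and Dhcr7, were all not called. Insig1 (32.4) was well above Insig2 (5.05). The lowest were Acss2 (0.954), Tm7sf2 (0.769) and Fdps (0.414). Of all tested genes, 99.1% were at or below the level of Scd2 and 6.08% at or below that of Fdps. Exon length here is the union over annotated transcripts, which understates the level of genes with many long isoforms.

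Pairs of related genes were compared as the share of the first gene in the counts of both, a value that no scaling of libraries affects. The 4 pairs were chosen after the members' values were seen, so their shares are given as a description. An exact permutation test was run on them, and its p-values are not given because of that choice. Of the Scd1 and Scd2 counts, Scd1 made up 41.2, 41.4, 41.3 and 40.9% in the control cultures and 44.7, 44.8, 44.9 and 44.5% in the osteoclast-conditioned cultures. The groups were far apart relative to their spread, with means of 41.2% ± 0.214 and 44.7% ± 0.160 (SD, n = 4 each), a difference of 3.47 percentage points. Scd1 and Scd2 share 4.56% of the 50-base words of Scd1 with each other or with Scd3 and Scd4. Of the Srebf1 and Srebf2 counts, Srebf1 made up 34.4, 33.6, 34.7 and 33.7% in the control cultures and 33.2, 33.0, 32.8 and 33.3% in the osteoclast-conditioned cultures, a fall of 1.05 percentage points. For Fads1 in Fads1 plus Fads2 the shares were 39.3, 38.5, 38.7 and 39.2% in the control cultures and 39.5, 41.4, 40.9 and 40.3% in the osteoclast-conditioned cultures, a rise of 1.58 percentage points. The shares of Scd1, Srebf1 and Fads1 did not overlap between the media. Of all tested genes taken singly 28.2% did not overlap, but that is another measure, and the rate for pairs was not computed. Insig1 in Insig1 plus Insig2 ran from 84.7 to 85.4% and from 84.0 to 86.5%, with overlap. Leaving out 1 culture at a time, the difference ran from 3.38 to 3.54 percentage points for Scd1, from -1.21 to -0.847 for Srebf1 and from 1.29 to 1.90 for Fads1, while that of Insig1 changed sign (-0.169 to 0.683).

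**Figure D4:**
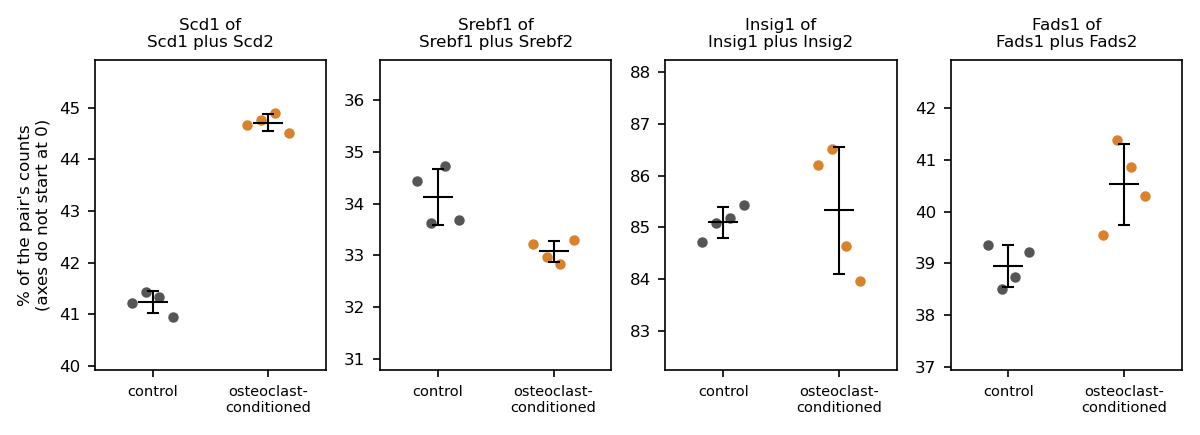
Share of the first gene in the counts of 4 pairs of related genes, in percent, for each culture, with mean and SD (n = 4); each axis spans 6 percentage points and does not start at 0. The shares of Scd1, Srebf1 and Fads1 do not overlap between media, and that of Insig1 does.

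Other genes of lipid synthesis and use were read from 7 lists beside the members. Of 103 listed genes 85 were tested, and 28 (32.9%) were called, 12 higher and 16 lower, near the 30.5% of all tested genes. In the list of other sterol pathway, uptake and export genes, 4 of 14 (28.6%) were called higher and 2 (14.3%) lower. Of all tested genes 15.7% were called higher and 14.8% lower. The 4 that rose were Abca1 and Abcg1, which export cholesterol and are known targets of the sterol-sensing LXR receptors, and Npc1 and Npc2, which move cholesterol out of lysosomes. Lpcat3, a phospholipid acyltransferase that is also a known LXR target, was among the 2 called lower (log2 fold change -0.15, SE 0.036, with an edgeR adjusted p of 0.00224). Abca1 rose most, from 0.849 ± 0.117 to 1.94 ± 0.120 normalised CPM (SD, n = 4 each; log2 fold change 1.21, SE 0.21, with an edgeR adjusted p of 4.41e-05), on only 15 to 41 counts per culture. Abcg1 went from 152 ± 5.06 to 188 ± 2.71 normalised CPM (log2 fold change 0.30, SE 0.030, with an edgeR adjusted p of 3.07e-09), and Npc1 and Npc2 had log2 fold changes of 0.28, SE 0.043 and 0.22, SE 0.027. Of the genes that cleave SREBPs or govern the breakdown of sterol-regulated proteins, 2 of 10 tested were called higher and 2 lower. That was 20% in each direction, against 15.7% and 14.8% of all tested genes. Mbtps1, the first protease to cut SREBPs, was higher (0.11, SE 0.028), as was Erlin1 (0.19, SE 0.041), while Vcp (-0.18, SE 0.033) and Rnf145 (-0.12, SE 0.031) were lower.

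In the other fatty acid list, 3 of 20 tested genes were called higher and 4 lower (35.0% called, against 30.5% of all tested genes). Slc25a1, the carrier that exports the citrate used by Acly, was lower (log2 fold change -0.19, SE 0.031, with an edgeR adjusted p of 2.18e-05), and so was Tecr, the last reductase of fatty acid elongation (-0.18, SE 0.029). Hsd17b12, the first reductase of the same elongation cycle, was called higher (0.10, SE 0.035), with overlap between the groups, while the elongase Elovl1 was lower (-0.12, SE 0.038). Of the genes that activate long-chain fatty acids, Acsl1 was higher (0.18, SE 0.035) and Acsl3 lower (-0.11, SE 0.036). Mid1ip1, which promotes the activity of acetyl-CoA carboxylase, was higher (0.13, SE 0.034). In glycerolipid synthesis 3 of 11 tested genes (27.3%) were called, all higher. Of all tested genes 30.5% were called either way and 15.7% higher. The 3 were Gpat3 and Agpat3, acyltransferases of early glycerolipid synthesis, at 0.32, SE 0.032 and 0.25, SE 0.042, and Agpat4 at 0.36, SE 0.096. In fatty acid oxidation 3 of 12 (25.0%) were called, all lower, where 14.8% of all tested genes were called lower. They were Acadvl (-0.29, SE 0.065), Acaa2 (-0.21, SE 0.045) and Cpt1a (-0.17, SE 0.037), the last being the gate for entry of fatty acids into mitochondria. Control replicate 2 was the highest control culture in 10 of these 12 genes. Of the 6 tested genes that supply NADPH, 3 were called, all lower, with 14.8% of all tested genes called lower: Idh1 (-0.35, SE 0.059), Pgd (-0.19, SE 0.031) and Idh2 (-0.093, SE 0.032). Of 12 genes that use prenyl chains, Pdss1 (-0.22, SE 0.053) and Rabggtb (-0.21, SE 0.048) were lower, a share of 16.7% that is close to the 14.8% of all tested genes called lower.

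Some members share sequence with neighbours or copies. Acat2 shares 39.1% of its 50-base words with its near copy Acat3 or with Tcp1, and Acat3 itself had 7 to 22 counts per culture. Idi1 and Fdft1 share 25.3% and 26.5% of theirs with other transcripts, in part pseudogenes and, for Fdft1, Ctsb on the opposite strand, which covers 18.3% of its exon bases. For Acaca the figure was 30.4%, spread over 335 genes. How many reads were lost or shared in this way was not measured. The shared part was 11.6% for Hmgcs1, over 125 genes, 9.96% for Scap, with 1 gene, and 9.87% for Tm7sf2, with Vps51. For Lss it was 1.86%, for Elovl6 3.98%, and for Pmvk, Nsdhl and Fasn 0%.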

How the data were processed

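RNA was extracted with the RNeasy Plus Mini Kit and made into SureSelect HS2 libraries, per the labels' protocols. The authors deposited raw read counts per Ensembl gene for 8 cultures; STAR 2.7.5a, featureCounts 2.0.1 and mm10 are named in the submitters' processing notes, and the annotation and strand setting are not given in the sources used here. Gene names came from GENCODE M21 (21817 of 21859 IDs matched) and promoters from RefSeq (GRCm38.p6).

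The test between media was that of edgeR 4.0.16, run under R 4.3.3: filterByExpr, TMM scaling, robust quasi-likelihood fit, medium as the only term, all 8 cultures, Benjamini-Hochberg adjustment over 10729 genes, threshold 0.05. The standard error is the log2 fold change divided by the root of F. The fit was tested on simulated counts. Paralog shares were computed from raw counts; an exact permutation test was run on them, but its p-values are not given, since the pairs were chosen after their values were seen. Alternatives were other scalings, other filters on low counts, DESeq2 1.42.0, limma-voom (limma 3.58.1), a replicate block, a threshold of 0.01 and leaving out each culture.

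The members, lists and tests were chosen with earlier results of these data known. Every member is accounted for; values in every culture are given for called members, the 4 largest fold changes of each role and a fixed list of main genes. In the other lists the 3 largest called changes are named; Npc2, Mbtps1, Lpcat3, Hsd17b12, Elovl1, Acsl3 and Mid1ip1 were added after their values were seen. Not every gene of these pathways is reported here. Total counts of 15391754 to 21637966 set the precision, and floors cover counting error only.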

Additional observations from a re-analysis of the deposited data

Results flagged for a closer look

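In 7 of the 66 sets of 4 cultures examined, each the values of 1 tested member in 1 medium, the highest or lowest culture stood apart from the other 3 by more than Dixon's 95% critical value for a set of this size. Chance flags about 1 in 20 such sets, or 3.3 here. In 4 of the 7 the culture was control replicate 2, on the high side. In Hsd17b7 it had 31.0 normalised CPM against 25.6 to 25.7 in the other control cultures. In Stard4 it had 158 against 135 to 138, in Acly 753 against 711 to 718, and in Scd1 1175 against 1102 to 1111. The calls of Hsd17b7 and Stard4 were lost without this culture, and that of Scd1 was kept.

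The other 3 were spread over cultures. Insig1 had 103 normalised CPM in osteoclast-conditioned replicate 2, against 97.3 to 97.7 in the rest of its group. Elovl6 had its lowest value, 285, in osteoclast-conditioned replicate 1, against 297 to 299. Acss2 had its lowest control value, 8.94, in control replicate 1, against 9.90 to 9.99. Elovl6 and Acss2 kept their calls without these cultures.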

How the results depend on the processing

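Of the 14 called members, 9 kept their call and direction under all 17 alternatives (Acat2, Pmvk, Lss, Nsdhl, Scap, Fasn, Scd1, Elovl6 and Acss2), and 5 lost it under at least 1 (Mvk, Tm7sf2, Hsd17b7, Stard4 and Scd2); 0 reversed. The stricter threshold of 0.01 left 2147 genes called, 9 members, 4 of the sterol branch and 1 regulator. DESeq2's test called 2672 genes, 12 members and 5 of the sterol branch, without Mvk and Hsd17b7. Leaving out 1 culture at a time gave 2635 to 3578 genes, 10 to 14 members, 5 to 7 of the sterol branch, 4 to 5 fatty acid genes and 1 to 2 regulators, the lowest regulator count without osteoclast-conditioned replicate 1. The sterol branch median ran from -0.13 with total counts only to -0.067 with a mean of at least 50 counts, which tests 17 of the 18 genes.

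Signs turned for members close to 0. With total counts only Msmo1 was -0.0076 and Dhcr7 -0.020, and with upper quartile scaling Dhcr7 was -0.0075 (log2 fold changes). Over the fits without 1 culture the log2 fold change ran from -0.040 to 0.021 for Hmgcs1, -0.031 to 0.040 for Ggps1, -0.030 to 0.025 for Fdft1, -0.015 to 0.079 for Msmo1, -0.027 to 0.0067 for Sc5d, -0.037 to 0.051 for Dhcr7 and -0.017 to 0.0086 for Srebf1. The cause was not tested. Whether replicate numbers shared between media pair the cultures could not be settled, because the correlations below were small. Correlations of same-numbered deviations ran from -0.051 to 0.143 with a mean of 0.037, against a mean of -0.013 for differently numbered cultures. Of the 8 cultures, 3 correlated best with their own number. With a replicate block 3446 genes were called, against 3273 without it, and 14 members, 7 of the sterol branch, 5 fatty acid genes and 2 regulators. Tm7sf2 and Fdps, with at most 71 and 41 counts per culture, are limited by depth.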
